A study of Mus musculus with 68 samples.

Results

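The voltage-gated sodium channel genes described here are Scn1a, Scn2a1, Scn3a, Scn8a and Scn9a, which encode pore-forming α subunits, and Scn2b, Scn3b and Scn4b, which encode β subunits. They were found by their symbol in a table of 36172 genes, and all 8 members were in it. RNA had been drawn through the patch pipette from single ventral tegmental area (VTA) dopamine neurons in slices, after a recording of the tail current, and sequenced cell by cell (Patch-seq). There were 33 cells from 3xTg mice, homozygous for humanized transgenes that include APP Swe and Tau P301L, and 35 cells from WT mice, a transgene-free control line bred alongside. Both lines share a hybrid background, given in the study's methods as C57BL/6;129×1/SvJ;129S1/Sv embryos injected in a B6;129. All mice were 12 months old, and males and females were pooled. The labels do not name the mouse of a cell. A genotype therefore counts as a single sample here, no test between genotypes was possible, and spread across cells does not describe spread across animals. The recorded currents were not analysed here.

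Voltage-gated sodium channels open on depolarization and carry the inward current of the action potential. A single α subunit holds the voltage sensors and the pore, and β subunits, small membrane proteins with an immunoglobulin-like domain, set the gating and surface density of the channel. VTA dopamine neurons fire slowly on their own, and sodium current contributes both to their spikes and to the subthreshold drive between spikes.

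The median total was 1194457 counts per 3xTg cell (range 676556 to 1678624) and 982390 per WT cell (range 492505 to 1327367). A gene is described as counted, or as having a count, in a cell where its estimated count was at least 1. The dopamine neuron markers Th, Slc6a3, Slc18a2 and Ddc had a count in every cell. Their summed level was 19270 CPM (counts per 1000000 counts of the genotype) in 3xTg and 15172 CPM in WT. Markers of other cells were also present, and their summed level was lower in 3xTg than in WT for microglia (101 against 357 CPM), the oligodendrocyte lineage (86.3 against 278 CPM), astrocytes (13.3 against 131 CPM), GABA neurons (29.03 against 45.6 CPM) and glutamate neurons (14.97 against 43.5 CPM). Microglial markers were found in 31 of the 3xTg and 33 of the WT cells, reaching 3294 and 2329 CPM in a cell. Cx3cr1 had a count in 29 and 30 cells, C1qb in 10 and 13, P2ry12 in 4 and 3, and Tmem119 in 0 and 1. Against their lists, Cx3cr1 (14.2 and 11.8 CPM), Gfap (1.53 and 0.907 CPM) and Mog (1.48 and 0 CPM) were higher in 3xTg. The astrocyte list had a count in 7 and 11 cells (up to 272 and 2410 CPM) and the oligodendrocyte list in 32 and 35 (up to 556 and 2539 CPM). Cldn5, Pecam1 and Aldh1l1 had no count in any cell. The part of these markers in the results was not tested. Label numbers form runs of 1 genotype, and what they mark is not stated. The first runs are 3xTg 24 to 55 (21 cells) and WT 1 to 22 (17 cells). The second runs are 3xTg 76 to 92 (12 cells) and WT 57 to 74 (15 cells), while WT 94 to 96 (3 cells) enter neither. A comparison within the first or second runs sets the 3xTg run against the WT run of the same order. The labels do not give this pairing, and other pairings were not tested. The median number of genes with a count was 7648 and 5233 in the first runs and 9308 and 8441 in the second runs.

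The genes for 4 of the α subunits lie together on mouse chromosome 2 (mm10), in the order Scn3a (chr2:65457118-65567492, minus strand), Scn2a1 (chr2:65670445-65767447, plus), Scn1a (chr2:66270782-66440837, minus) and Scn9a (chr2:66480081-66634952, minus). Scn8a lies apart, at chr15:100870645-101045938 on the plus strand. The β genes are all on the plus strand of chromosome 9, with Scn3b at chr9:40269216-40291618, Scn2b at chr9:45117876-45130070 and Scn4b at chr9:45139042-45154061. The α transcripts resemble each other enough for a read to match more than 1 of them. In the longest GENCODE vM21 transcripts (GRCm38), 8.53% of the 50-base words of Scn3a were found in another member's transcript. The shares were 7.58% for Scn2a1, 5.48% for Scn1a, 5.36% for Scn9a and 0.0527% for Scn8a. None of the 50-base words of the β transcripts was shared with another member. How reads matching several genes were counted is not given in the sources used here, so the part of the α counts that lies in such stretches is uncertain.

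Transcripts of 7 of the 8 members were counted in at least 20% of the 68 cells. Levels of different genes were compared as summed CPM per kilobase of the longest transcript. In 3xTg cells Scn2b led with 109 CPM per kb, followed by Scn3b (81.2), Scn2a1 (28.3), Scn3a (25.03), Scn9a (13.4), Scn1a (5.18) and Scn8a (2.18). In WT cells the order was Scn3b (123 CPM per kb), Scn2b (85.5), Scn3a (24.4), Scn2a1 (18.5), Scn9a (14.3), Scn1a (9.46) and Scn8a (1.66). The genotypes thus had the same order but for 2 exchanges between neighbours, Scn2b with Scn3b and Scn2a1 with Scn3a. The latter exchange did not hold within the first runs. There the ratio of Scn2a1 to Scn3a, summed per length, was 0.996 in 3xTg and 1.6 in WT, while in the second runs it was 1.40 and 0.54. The ranks within each genotype were the same with coding length and with the mean over cells.

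**Figure D1:**
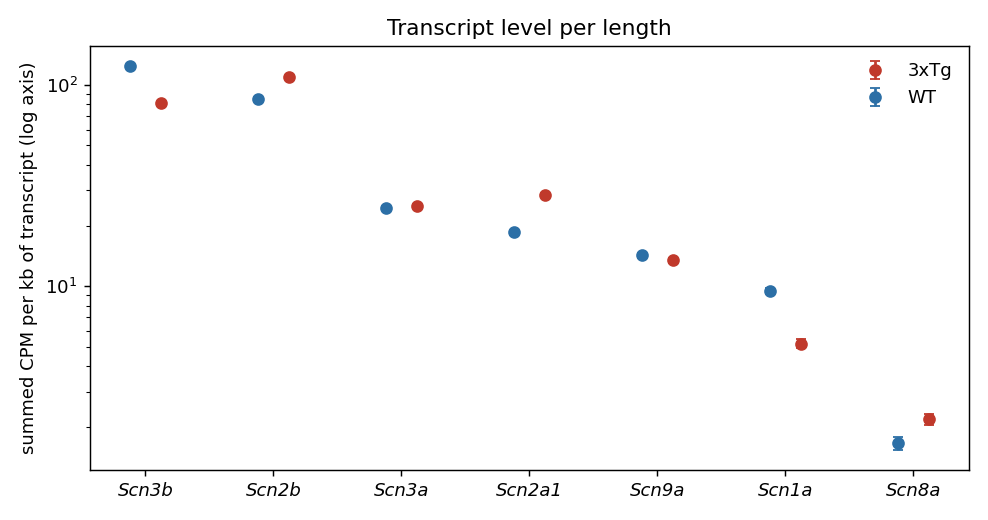
Summed CPM per kilobase of the longest transcript (log axis) for the members with counts, in 3xTg (33 cells, red) and WT (35 cells, blue); bars are 95% counting intervals and are mostly hidden by the points. The β genes Scn3b and Scn2b lie between 81.2 and 123, above every α gene.

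Neighbours in this order overlapped from cell to cell. In 3xTg cells the ranges from the 25th to the 75th percentile of the per-cell levels per length overlapped for every pair of neighbours but Scn8a and Scn4b. Scn2b was above Scn3b in 20 of the 33 3xTg cells and Scn2a1 above Scn3a in 23 of the 33. In WT cells these ranges were apart for Scn2b and Scn3a, with Scn2b higher in 30 of the 35 cells, and for Scn8a and Scn4b. Scn3b was above Scn2b in 17 of the 35 WT cells and Scn3a above Scn2a1 in 20 of the 35. Among neighbouring α genes the summed order held in 51.4% to 81.8% of the cells of a genotype.

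**Figure D2:**
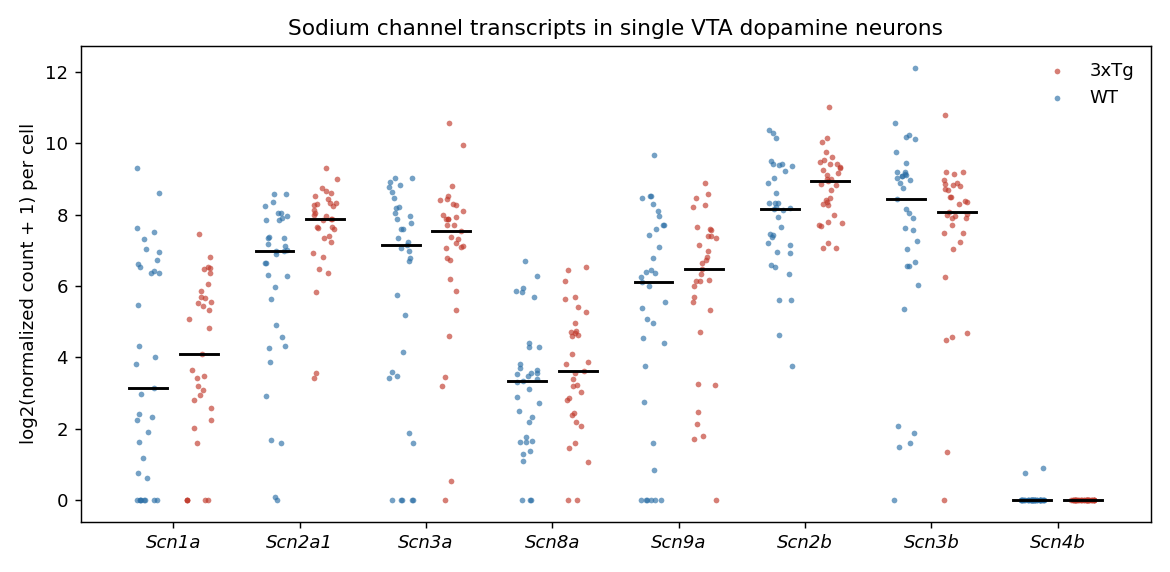
Normalized count of each member in each cell as log2(normalized count + 1), with WT cells in blue at the left, 3xTg cells in red at the right and a black bar at the median of each genotype. Scn2b is above 0 in all 68 cells, Scn1a is at 0 in 13 cells and the other members but Scn4b in 1 to 7, and the genotypes overlap for every member.

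Genotypes were compared in 2 ways, which weight cells differently. The first is the log2 ratio, 3xTg over WT, of the summed CPM, in which cells with many counts weigh most. The second averages log2(normalized count + 1) over the cells of each genotype and takes 3xTg minus WT. In this report a member is called higher or lower when its summed level differs at least 1.5-fold. Of the 11414 genes counted in at least 20% of cells, 18.3% were called higher and 21.7% lower in 3xTg, and the median log2 ratio was −0.05. Of the 7 members that passed the same filter, 1 was called higher (Scn2a1) and 2 were called lower (Scn1a and Scn3b), with a median log2 ratio of 0.04. These 7 were also among the 3988 genes whose normalized count reached 1 in 80% or more of the cells of either genotype, and of those genes 9.93% were called higher and 13.1% lower. The mean difference was above 0 for 72.8% of the 11414 genes, with a median of 0.44, and for 7 of the 7 members that passed. Mean differences are therefore also given relative to that median gene. Within the first runs 32.6% of genes were called higher and 20.9% lower, and within the second runs 20.0% and 34.3%. At a limit of 2-fold over all cells, no member was called, beside 8.78% of genes higher and 10.5% lower. Without the 8 3xTg and 17 WT cells that held over 200 CPM of glial markers, a limit chosen after seeing the data, Scn1a alone was called (lower), beside 17.9% of genes higher and 26.3% lower. Nothing particular to the members is read from these counts.

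Summed over the family, the level was nearly equal, at 1537 CPM (56434 counts) in 3xTg and 1548 CPM (52656 counts) in WT, a log2 ratio of −0.01 (interval −0.03 to 0.01). The α genes together reached 693 CPM (3xTg) and 637 CPM (WT), and the β genes 844 and 910 CPM. Intervals of counts are exact Poisson intervals at 95% and cover counting error only, since no molecular identifiers are described and the cDNA was amplified by PCR. Those of shares of cells are exact Clopper-Pearson intervals at 95%, which take cells as independent draws, hold no spread between mice and do not compare the genotypes. The family level of a cell had a median of 1482 CPM in 3xTg (range 764 to 2870) and 1375 CPM in WT (range 27.1 to 3909). The WT cells thus reached both lower and higher than any 3xTg cell. The family ratio differed in sign between the runs, at 0.30 in the first and −0.31 in the second.

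Scn2a1, which encodes an α subunit found at the axon initial segment and along unmyelinated axons, was counted in 33 of the 33 3xTg and 33 of the 35 WT cells. The normalized count had a median of 233 per 3xTg cell (lowest 9.63, highest 636) and 125 per WT cell (lowest 0, highest 384). The genotypes overlapped, with the WT cells reaching lower and the 3xTg cells higher. The summed level was 253 CPM in 3xTg (interval 248 to 258) and 166 CPM in WT (interval 161 to 170), a log2 ratio of 0.61 (interval 0.56 to 0.66). As mean ± SD over cells of log2(normalized count + 1), Scn2a1 stood at 7.59 ± 1.30 (3xTg) and 6.04 ± 2.38 (WT). The means differ by 1.55, which is 1.11 above that of the median gene. This mean difference was higher than that of 91.4% of the genes compared, and the summed log2 ratio higher than that of 82.7%. The log2 ratio was 0.75 in the first and 0.38 in the second runs, so that it kept its direction in both and passed 1.5-fold in the first. Without the cells over 200 CPM of glial markers it was 0.22. The summed ratio lies close to the 1.5-fold limit of 0.58 on the log2 scale, and leaving out any 1 of 16 cells put it just below, at 0.56 at the lowest (3xTg cells 36, 40, 41, 42 and 43 and WT cells 5, 6, 9, 11, 17, 18, 20, 22, 72, 73 and 94).

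Scn1a, whose α subunit is best known from fast-spiking GABA neurons and from Dravet syndrome, gave opposite signs in the 2 measures. It was counted in 28 of the 33 3xTg and 26 of the 35 WT cells. Its median normalized count was 16.1 among 3xTg cells, with a range of 0 to 174, and 7.86 among WT cells, with a range of 0 to 626. The higher median was thus in 3xTg and the highest cells were in WT. The summed level was 43.4 CPM in 3xTg and 79.4 CPM in WT, a log2 ratio of −0.87 (interval −0.96 to −0.78), while the mean ± SD over cells was 3.95 ± 2.29 (3xTg) and 3.72 ± 3.06 (WT), which differ by 0.23 (−0.21 relative to the median gene). Restricted to cells with a count, the means differed by −0.33. In each genotype 5 cells held at least 50% of the counts. WT cell 9 alone held 20.4% of the WT counts, and this cell had 1599 CPM of microglial markers. WT cell 60 held another 13.1% and had 761 CPM of the glutamate neuron marker Slc17a6. Without WT cell 9 the ratio was −0.59, and without all cells over 200 CPM of glial markers it was −1.07. The ratio was −0.35 in the first and −1.39 in the second runs, where the mean differences were 1.05 and −0.44. WT cell 9 is in the first run and held 551 counts there, beside 144 in the next highest WT cell (21). The direction of the summed ratio in the first runs without WT cell 9 was not tested.

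Scn3a, which encodes an α subunit that predominates before birth in rodent brain, was counted in 31 of the 33 3xTg and 30 of the 35 WT cells. Across 3xTg cells the normalized count ran from 0 through a median of 186 to 1512, and across WT cells from 0 through 141 to 524. The genotypes overlapped through most of their range, and 3xTg cell 50 stood highest with 16.3% of the 3xTg counts. The summed levels were 239 CPM in 3xTg and 233 CPM in WT, a log2 ratio of 0.04 (interval −0.01 to 0.08). Without the cells over 200 CPM of glial markers the ratio turned to −0.44. The mean over cells differed by 1.09, which is 0.66 above the median gene. Within runs the summed ratios lay on opposite sides of equality. The ratio was 1.43 in the first runs and −0.99 in the second, and WT cells of the second run were 1.94 above those of the first on the log2 scale. The mean differences over cells were above 0 in both, at 1.95 and 0.21, and the latter was −0.28 relative to the median gene of its runs. In the second runs, where cells had more genes detected, Scn3a was missing from 0 of 12 3xTg cells and from 1 of 15 WT cells. The runs cannot be told apart from the number of genes detected.

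Scn9a, the α subunit known from pain-sensing peripheral neurons, was counted in 32 of the 33 3xTg and 28 of the 35 WT cells. The normalized count had a median of 87.5 per 3xTg cell (lowest 0, highest 476) and 68.6 per WT cell (lowest 0, highest 815). The groups overlapped, with WT holding both the highest cell and most of the cells at 0. The summed levels were 132 and 140 CPM, a log2 ratio of −0.09 (interval −0.15 to −0.03). The ratio was 0.19 in the first and −0.25 in the second runs. The mean difference over cells was 0.75, which is 0.31 above the median gene, and it was −0.32 among cells with a count alone.

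Scn8a, whose α subunit is concentrated at nodes of Ranvier and carries persistent and resurgent current, was the scarcest α gene per length and was nevertheless counted in 31 of the 33 3xTg and 32 of the 35 WT cells. Its median normalized count was 11.3 among 3xTg cells, with a range of 0 to 92.2, and 9.12 among WT cells, with a range of 0 to 104. The genotypes covered nearly the same range. The summed levels were 24.9 and 18.9 CPM, a log2 ratio of 0.40 (interval 0.25 to 0.54). Leaving out 3xTg cell 92, which held 20.7% of the 3xTg counts, gave 0.13. The mean difference was 0.47, which is 0.04 above the median gene. The ratio was 0.14 in the first and 0.53 in the second runs.

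**Figure D3:**
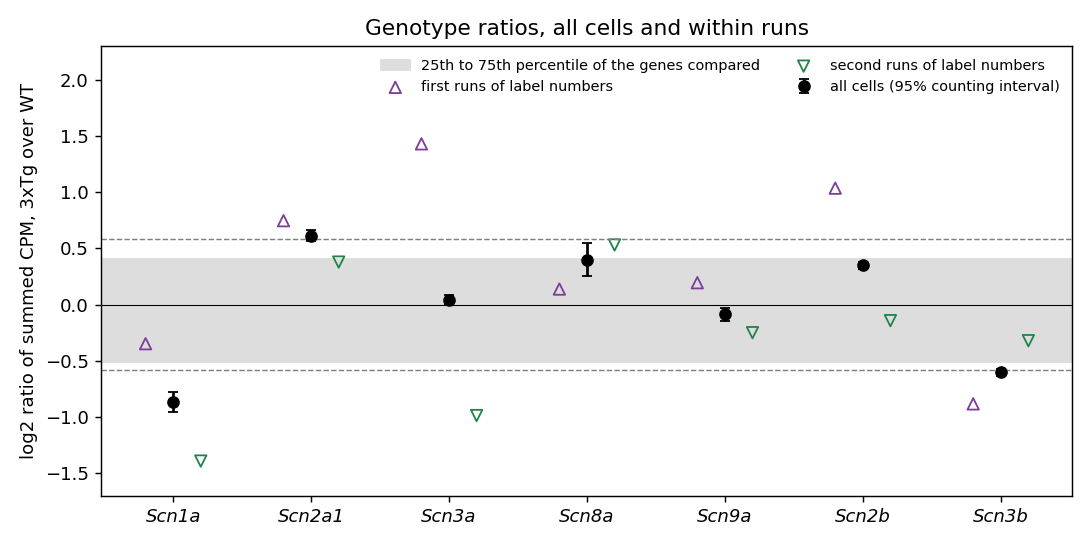
Log2 ratio of summed CPM, 3xTg over WT, for each member with counts, in all cells (black, with 95% counting intervals), in the first runs of label numbers (upward triangles) and in the second runs (downward triangles). The grey band spans the 25th to 75th percentile of the 11414 genes compared (−0.51 to 0.41), dashed lines mark 1.5-fold, and Scn3a lies at 1.43 in the first and −0.99 in the second runs.

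Scn2b, whose product is joined to the α subunit by a disulfide bond and is cut by the secretase Bace1, was counted in all 68 cells, with at least 10 counts in each. Across 3xTg cells the normalized count ran from 132 through a median of 486 to 2079, and across WT cells from 12.5 through 286 to 1313. The genotypes overlapped, and the lowest cells were in WT. The summed levels were 507 CPM in 3xTg (interval 500 to 515) and 398 CPM in WT (interval 391.5 to 404.9), a log2 ratio of 0.35 (interval 0.32 to 0.38). The mean ± SD over cells was 8.79 ± 0.93 (3xTg) and 7.90 ± 1.55 (WT), which differ by 0.89, or 0.45 above the median gene. Its SD across cells was the lowest of the 7 members in both genotypes. The ratio was 1.03 in the first and −0.14 in the second runs, while the mean differences over cells were above 0 in both, at 1.21 and 0.59.

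Scn3b, whose product binds the α subunit without a disulfide bond, was counted in 32 of the 33 3xTg and 34 of the 35 WT cells. The normalized count had a median of 271 per 3xTg cell (lowest 0, highest 1786) and 343 per WT cell (lowest 0, highest 4451). The highest cell and the wider spread were in WT. The summed levels were 337 CPM in 3xTg (interval 331 to 343) and 512 CPM in WT (interval 505 to 520), a log2 ratio of −0.60 (interval −0.64 to −0.57). The means over cells (± SD) were nearly equal, 7.52 ± 2.23 (3xTg) and 7.52 ± 2.89 (WT), and differ by 0.01 (−0.43 relative to the median gene). WT cell 6 held 19.3% of the WT counts and had 1356 CPM of microglial and 1073 CPM of astrocyte markers, and without it the ratio was −0.34. Without any cell over 200 CPM of glial markers it was −0.36. With TMM factors it was −0.55, and without the 5 3xTg and 5 WT cells that had a count of Pvalb, Tmem119, P2ry12 or Aldh1l1 it was −0.52, both under 1.5-fold. Leaving out any 1 of 14 cells put the ratio under 1.5-fold. These were WT cells 6, 9, 11, 67 and 69 and 3xTg cells 24, 30, 35, 37, 38, 42, 43, 55 and 81, and the 3xTg cells gave values from −0.58 to −0.56. The ratio was −0.88 in the first and −0.32 in the second runs. The mean difference changed sign between them, at −0.53 and 0.71.

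Scn4b, whose product is known for its part in resurgent sodium current, had no count in any 3xTg cell and 2 counts in WT, 1 in each of 2 cells. The floor set here for a summed level, 3 counts, is 0.0817 CPM in 3xTg. Both genotypes are under this floor, a cell without a count may still express the gene, no fold is given, and 1 count in a cell is not read as expression. Its gene is the next one described on chromosome 9 after Scn2b. The promoters of this pair are shown because Scn2b had a count in all 68 cells and its neighbour in 2. They are 300 bases from RefSeq (GRCm38.p6), from 250 before to 50 after the start site, at chr9:45117626-45117925 for Scn2b and chr9:45138374-45138673 for Scn4b, both on the plus strand. Capitals mark each CG dinucleotide, a motif that reads the same on both strands.

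Scn2b: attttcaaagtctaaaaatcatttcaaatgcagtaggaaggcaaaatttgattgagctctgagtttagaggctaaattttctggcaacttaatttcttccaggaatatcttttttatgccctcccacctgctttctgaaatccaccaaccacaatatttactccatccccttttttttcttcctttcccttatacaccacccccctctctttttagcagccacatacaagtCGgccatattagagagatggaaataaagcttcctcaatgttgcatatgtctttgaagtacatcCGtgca
Scn4b: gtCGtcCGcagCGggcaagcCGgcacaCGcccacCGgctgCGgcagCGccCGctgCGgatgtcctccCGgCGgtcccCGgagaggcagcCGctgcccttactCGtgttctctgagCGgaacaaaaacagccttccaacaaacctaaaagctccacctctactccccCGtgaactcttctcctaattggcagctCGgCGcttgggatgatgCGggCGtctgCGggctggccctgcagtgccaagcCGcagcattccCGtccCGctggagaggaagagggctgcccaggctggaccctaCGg

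The Scn2b promoter held 2 CG dinucleotides and the Scn4b promoter 26. Over 32851 RefSeq promoters of this length the median was 7, and 94.6% held at least 1. As few as in Scn2b were found in 23.3% of promoters, and as many as in Scn4b in 16.9%. The RefSeq start of Scn4b lies upstream of the start in the deposited table. The CG content is a description of the sequence, and no methylation was measured.

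The 2 abundant β genes stood in a different ratio in the genotypes by summed level. The ratio of Scn2b to Scn3b, each per length, was 1.34 in 3xTg and 0.69 in WT. It was 1.59 and 0.42 in the first runs, and 1.06 and 0.94 in the second. Cell by cell, Scn2b was the higher gene per length in 60.6% of the 3xTg cells (20 of 33, interval 42.1% to 77.1%) against 51.4% of the WT cells (18 of 35, interval 33.99% to 68.6%). The 3xTg share was the higher one in the first runs (14 of 21 against 6 of 17). It was the lower one in the second runs (6 of 12 against 9 of 15). The summed ratio in WT includes WT cell 6. The median over cells of the log2 difference, Scn2b minus Scn3b without regard to length, was 0.33 in 3xTg and 0.46 in WT. Over all cells this is the opposite order to the summed ratios. In the first runs the medians were 1.26 (3xTg) and −0.41 (WT), the same order as the sums. In the second runs they were 0.12 and 0.61.

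**Figure D4:**
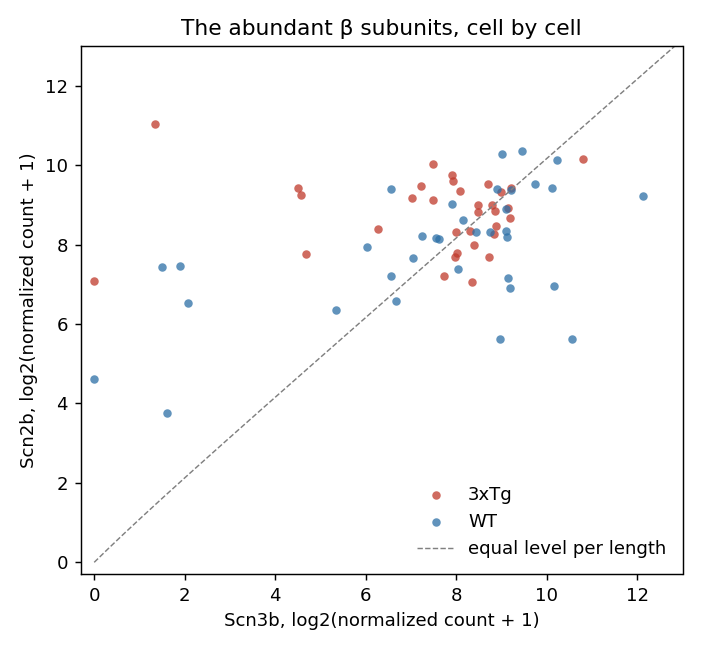
Scn2b against Scn3b in each cell, both as log2(normalized count + 1), for 3xTg (red) and WT (blue); the dashed line marks equal level per length. Of the 3xTg cells 20 of 33 lie above the line, and of the WT cells 18 of the 35, while WT cell 6 lies farthest to the right.

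All 5 α genes had at least 1 count in 25 of the 33 3xTg and 22 of the 35 WT cells. At least 10 counts were reached in 19 of the 33 3xTg and 18 of the 35 WT cells for Scn1a, and in the same numbers of cells for Scn8a. Per length, Scn2a1 was the leading α gene in 54.5% of the 3xTg cells (18 of 33, interval 36.4% to 71.9%) against 28.6% of the WT cells (10 of 35, interval 14.6% to 46.3%). Within the first runs it led 10 of 21 cells (3xTg) against 7 of 17 (WT). Within the second it led 8 of 12 against 2 of 15, and Scn3a led 11 of those 15 WT cells. Over all cells Scn3a led in 9 3xTg and 14 WT cells, Scn9a in 5 of each, Scn8a in 1 3xTg and 4 WT cells, and Scn1a in no 3xTg and 2 WT cells. The median share of Scn2a1 in the α level of a cell was 39.8% in 3xTg and 25.8% in WT, and the shares ranged from 1.61% to 96.3% and from 0% to 86.5%. The genotypes therefore overlapped over nearly the whole range of shares. The ratio of Scn2a1 to Scn1a summed per length was 5.47 in 3xTg and 1.96 in WT. With all cells of a run, this ratio was higher in 3xTg in the first runs (5.22 against 2.44) and the second runs (5.87 against 1.72). The ratio of Scn2a1 to Scn3a was the lower one in 3xTg in the first runs. The first-run WT ratio of Scn2a1 to Scn1a includes WT cell 9. This cell held 551 Scn1a counts, beside 144 in WT cell 21, the next highest of that run. In WT cell 9, Scn1a made up 80.6% of the α level and Scn2a1 2.19%. Whether the order in the first runs holds without this cell was not tested. Scn2a1 was above Scn1a in 29 of the 33 3xTg and 28 of the 35 WT cells.

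**Figure D5:**
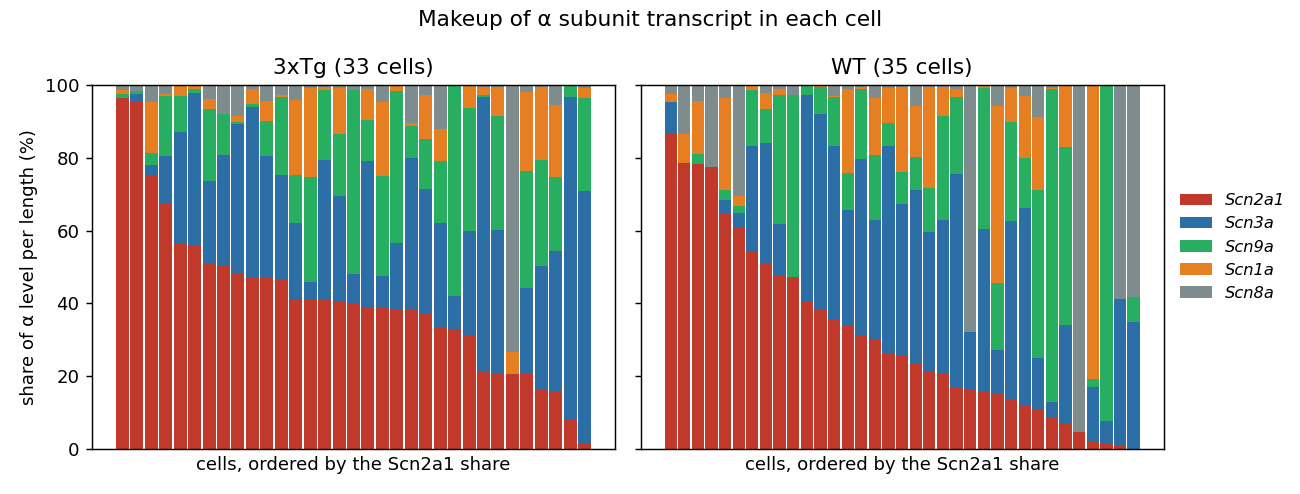
Share of each α gene in the summed α level per length (vertical axis, %), 1 bar per cell, for 33 3xTg cells (left) and 35 WT cells (right), each ordered by the Scn2a1 share. Scn2a1 (red) has a median share of 39.8% in 3xTg and 25.8% in WT, and single cells of either genotype are led by Scn3a, Scn9a or Scn8a.

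Correlations across cells of log2(normalized count + 1) describe how members went together. The points share their size factors and library complexity. The mean of the Pearson correlations over 33 3xTg and 35 WT cells was highest for Scn3a with Scn9a (0.57), followed by Scn2a1 with Scn3a (0.45). Scn2a1 and Scn3a correlated at 0.26 in 3xTg and 0.64 in WT. With the number of genes detected in a cell, Scn9a correlated at 0.43 in 3xTg and 0.60 in WT, and Scn1a at 0.49 and 0.47. The values were 0.24 and 0.73 for Scn3a and 0.20 and 0.68 for Scn2a1, higher in WT, and 0.53 and 0.10 for Scn3b, higher in 3xTg. They were 0.12 and 0.08 for Scn8a and −0.23 and 0.15 for Scn2b. Scn2b and Scn3b correlated at 0.02 in 3xTg and 0.57 in WT.

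Among the 7304 genes counted in at least 50% of the cells, the genes with the pattern most like Scn2b, by the same mean correlation, were Scg5 (0.71), Uqcrb (0.69) and Cd200 (0.67). Those most like Scn3b were Sdc2 (0.73), Prepl (0.71) and Tgoln1 (0.68). For Scn2a1 they were Thyn1 (0.62), 0610012G03Rik (0.61) and Ldha (0.61). For Scn9a they were Zfr (0.66) and Gm13629 (0.65), and for Scn3a Cmah (0.60), Me3 (0.60) and again Gm13629 (0.59). Gm13629 lies at chr2:66440880-66547472 on the plus strand and overlaps Scn9a, which is on the minus strand, but not Scn3a. It had 435 counts in 3xTg and 359 in WT, in 30 and 23 cells. Whether counting used the strand is not given in the sources used here, so reads of Scn9a and Gm13629 cannot be told apart with certainty. Likeness was lower for Scn1a (Pofut1, Zc3h7a and Ftcd, 0.54 to 0.53) and for Scn8a (Frrs1, Opcml and Lrrc4b, 0.45 to 0.44).

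The other sodium channel genes described here were scarce. The sensory neuron gene Scn11a had 12 counts in 3 3xTg cells, 1 of which held 83.3%, and none in WT. The skeletal muscle gene Scn4a had 5 counts in WT and none in 3xTg, Scn7a had 7 and 6 counts, and Scn10a had 1 and 3. None of these 4 genes passed the filter on detection, so none could be called, and Scn7a alone allows a log2 ratio (0.11, interval −1.68 to 1.96), beside a median of −0.05 over all genes compared.

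Of the 4 intracellular fibroblast growth factors, cytosolic proteins that bind the tail of the α subunit, 3 had counts, and 1 of these was called higher and none lower, where 18.3% of all genes compared were called higher and 21.7% lower. Fgf13 stood at 765 CPM (3xTg) and 621 CPM (WT), a log2 ratio of 0.30, and its mean over cells differed by 1.39, or 0.95 above the median gene. Fgf12 had 122 and 119 CPM (0.04), and Fgf14, the gene that was called, had 46.6 and 29.9 CPM (0.64) with counts in 19 and 15 cells. Fgf11 had no count in any cell. The median of the list was 0.30. Of the 4 axon initial segment genes in the table, none was called, and their median was 0.29. Ank3, which encodes the ankyrin that anchors the channel, had 78.7 and 87.5 CPM (−0.15). Nrcam (0.43), Nfasc (0.35) and Cntn1 (0.22), adhesion molecules of the segment and node, had summed ratios above 0 and under the limit. Their means over cells differed by more, at 1.58 for Nrcam, 1.42 for Nfasc and 1.29 for Cntn1, which are 1.14, 0.98 and 0.86 above the median gene, while Ank3 was 0.28 above it.

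The kinase CK2 phosphorylates the site by which α subunits bind ankyrin. None of its 3 genes was called, beside the 18.3% of all genes called higher and 21.7% called lower, with log2 ratios of 0.48 for the catalytic Csnk2a1, 0.16 for Csnk2a2, which is the median, and 0.00 for the regulatory Csnk2b. Their mean differences were 1.25, 0.19 and 0.69, of which that of Csnk2a1 was 0.81 above the median gene and that of Csnk2a2 −0.25 relative to it. Of the 4 genes of turnover and processing in the table, 3 passed the filter on detection, and 1 of these was called. This was Nedd4, a ubiquitin ligase, which was higher in 3xTg with 519 and 322 CPM (0.69) and a mean difference of 1.46, or 1.02 above the median gene. Its relative Nedd4l, which ubiquitinates sodium channels, had 109 and 114 CPM (−0.07). Bace1 had 54.9 and 36.7 CPM (0.58), just under the limit. Rest, the repressor of neuronal genes including sodium channels, had 22 and 8 counts, of which 1 3xTg cell held 77.3% of the 3xTg counts, and it did not pass the filter on detection. The median of these 4 genes, Rest included, was 0.63.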

How the data were processed

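Per the labels and the study's methods, poly-adenylated RNA of single neurons was made into directional libraries with 28 cycles of PCR. The authors trimmed adapters and 5 bases from each end, aligned reads to RefSeq transcripts of mm10 in Strand NGS 4.0 (identity of 90% or more), removed duplicate reads and deposited estimated counts per gene, of which 55.3% of those above 0 were not whole (tolerance 0.001). The authors also deposited log2 values normalized with the DESeq2 algorithm. Their median over cells was 0 for 39.1% of the genes counted in at least 20% of cells, and they followed log2(normalized count + 1) with a median correlation of 0.998 per gene. They were used as an alternative only.

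From the deposited estimated counts, DESeq2-type size factors were computed (median of ratios over the 787 genes above 0 in all cells), and a pseudocount of 1 was added before taking log2. Counts were summed over the cells of a genotype, rounded for the exact intervals, and divided by the genotype's total. Each deposited sample is 1 cell and no mouse is named, so each genotype was 1 sample and no p-value or standard error is given. The depth was 492505 to 1678624 counts per cell. A floor of 3 counts per summed genotype was set, which is 0.0817 CPM in 3xTg and 0.0882 CPM in WT. Cells were not filtered, clustered or checked for doublets. Lengths are of the longest GENCODE vM21 transcript.

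The members and all gene lists were chosen with earlier results of these data known. Named genes are every member, all listed genes, and the 3 most like each member counted in at least 50% of cells. Of the listed genes, Sptbn4 and Scnm1 did not match a symbol of the table, and some listed or named genes, a transgene and a shared coding stretch are not reported here. Alternatives were other scalings (edgeR TMM), pseudocounts, thinned cells (700448 counts, leaving out 2 3xTg and 5 WT cells), runs of label numbers, filters, fold limits, lengths and leaving out each cell. Leaving out cells with over 200 CPM of glial markers and a second transcript length were added after seeing the data. The calculations were tested on simulated data. Python 3.11.15, numpy 2.4.6, scipy 1.17.1, pandas 2.3.3, matplotlib 3.10.9, R 4.3.3 and edgeR 4.0.16 were used.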

Additional observations from a re-analysis of the deposited data

How the results depend on the processing

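With 1 sample per genotype these values carry no animal-level error. The summed family log2 ratio of −0.01 was 0.018 without the 5 3xTg and 5 WT cells with a marker of another cell type, −0.091 without cells over 200 CPM of glial markers, 0.30 in the first and −0.31 in the second runs, 0.033 after thinning, 0.11 with size factors and 0.042 with TMM factors, and leaving out each cell in turn gave −0.055 to 0.057. The number of members past 1.5-fold, 3, was 0 at 2-fold and 1 without cells over 200 CPM of glial markers, and 1 to 3 when each cell was left out. It was 4 in the first runs (Scn2a1, Scn3a and Scn2b higher, Scn3b lower) and 2 in the second (Scn1a and Scn3a lower). Of all genes compared, 32.6% were called higher and 20.9% lower in the first runs, and 20.0% and 34.3% in the second. With the stricter filter on detection, 9.93% of genes were called higher and 13.1% lower. Scn1a stayed past 1.5-fold when any 1 cell was left out (−1.10 to −0.59), Scn2a1 in 52 of 68 cases (0.56 to 0.68) and Scn3b in 54 (−0.73 to −0.34). The range was −0.18 to 0.16 for Scn3a, 0.13 to 0.55 for Scn8a, −0.20 to 0.05 for Scn9a and 0.28 to 0.44 for Scn2b. Of 49 other values of the 7 member ratios, 44 kept their direction, and no called member changed sign. The mean difference of Scn1a was −0.12 with a pseudocount of 10 and −0.03 after thinning, and that of Scn3b was −0.10 with a pseudocount of 10. Of 56 alternative mean differences 48 kept their direction. Size factors moved the median gene of the summed ratios from −0.05 to 0.09, and Scn2a1 to 0.87 and Scn3a to 0.46, or 0.79 and 0.37 above that gene. The cause of these shifts was not tested. No paired analysis was possible because the genotypes share no replicate numbers.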
